A study of Homo sapiens with 24 samples.

Results

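In MV4-11 cells, 8AA changed many genes at 8 h and at 24 h, and the results below concern how those changes differed between the times. The measure is the late minus early change, which is the difference between 8AA and untreated cells at 24 h minus the same difference at 8 h, on the log2 scale, and SE is its standard error. It rests on 8 of the 24 libraries of the series, and it was tested on 12800 of the 23354 genes in the count table. A gene was called when its Benjamini-Hochberg adjusted p fell below 0.05 in the quasi-likelihood test of edgeR over all genes tested. By this test 593 genes (4.63% of those tested) were called, 321 (2.51%) with a higher and 272 (2.12%) with a lower change at 24 h than at 8 h.

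MV4-11 is an established human line of acute myeloid leukemia (AML) with monocytic features, a KMT2A-AFF1 fusion and an internal tandem duplication of FLT3. The cells carried the label WT, and they were left untreated or given 1 µM 8AA (8-amino-adenosine) for 8 h or 24 h, with 2 libraries in each of the 4 groups. The hours of the untreated groups come from the sample titles alone. Libraries of MV4-11 treated with 1 µM 8CA (8-chloro-adenosine) and of KG-1a, another AML line, entered the fits and are used for comparison. Nothing in the labels says that replicates were separate cultures, so the p-values measure the spread between libraries, which may be technical.

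8AA and 8CA are analogs of adenosine that carry an amino group or a chlorine atom on the base. Cells take up such nucleosides and phosphorylate them, and the triphosphates can be built into RNA, where they stop chain growth. Transcripts that turn over quickly follow a change in synthesis within hours, whereas stable transcripts follow it more slowly. Transcripts of the cell cycle also depend on how many cells are in each phase, so their levels can move with the cycle as well as with the gene. In bulk RNA of this kind, a smaller number of cells of one type or phase and less RNA per cell cannot be told apart.

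The 8 libraries held 20132102 to 24181318 counted reads each. Of the markers of MV4-11, LYZ stood at 2760 to 3630 CPM (counts scaled to the size of the library), FLT3 at 406 to 578, CD33 at 99.8 to 129, MEIS1 at 81.2 to 100.0, MPO at 10.9 to 12.3 and HOXA9 at 7.12 to 8.15. HOXA9 was the higher in KG-1a, at 22.9 to 29.7 CPM. Of the markers of KG-1a, CD34 reached at most 0.165 CPM, while FGFR1 stood at 6.63 to 9.05 CPM against 127 to 175 in KG-1a. The 4 T cell markers CD3D, CD3E, CD3G and CD2 were at 0 in all 8 libraries, and of the B cell markers MS4A1 was at 0 in all 8 and CD79A at 0.185 to 0.429 CPM. HBB at 0.951 CPM and ALAS2 at 1.12 CPM each appeared in 1 library, and the erythroid sum was above 0 only in the group with 8AA at 8 h.

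At 8 h, 1742 genes (13.6%) were higher and 2000 (15.6%) lower with 8AA. At 24 h, 1773 genes (13.9%) were higher and 1953 (15.3%) lower. The share of higher genes among these calls depended on the scaling, at 46.6% at 8 h and 47.6% at 24 h with TMM, 61.2% and 63.8% with library size only, 61.9% and 59.9% with upper-quartile scaling, and 43.9% and 46.7% with the size factors of DESeq2. Both times called 1907 genes in the same direction, 51.0% of the calls at 8 h and 51.2% of those at 24 h, and 39 genes in opposite directions. A further 1796 genes were called only at 8 h and 1780 only at 24 h. A call at a single time was not by itself a difference between times, since the late minus early change was called for 211 of the 1796 and 248 of the 1780.

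From the 3 calls, genes were sorted by their time course. Passing changes, called at 8 h and not at 24 h with a called difference, were found in 133 genes that fell at 8 h (median log2 change −0.386 at 8 h and 0.016 at 24 h) and 78 that rose (0.442 and −0.011). Late changes, called at 24 h and not at 8 h with a called difference, were found in 137 genes that fell (0.035 and −0.353) and 111 that rose (−0.017 and 0.459). Lasting changes, called at both times in the same direction with no called difference, were the largest of these classes, with 999 genes that fell (−0.296 and −0.267) and 817 that rose (0.403 and 0.406). A change that grew was called in 38 genes and one that shrank in 53, of which 43 had fallen. The 39 turned genes were called in opposite directions, 25 of them higher at 8 h and lower at 24 h and 14 the reverse. These medians follow from how the classes were drawn and carry no test. Library pairs that do not overlap, given below for many genes, carry none either. Of the 7274 genes with no call at either time or between them, 3223 had separate pairs at 8 h and 3629 at 24 h. For genes named by class, separate pairs at the time of the change were required.

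**Figure D1:**
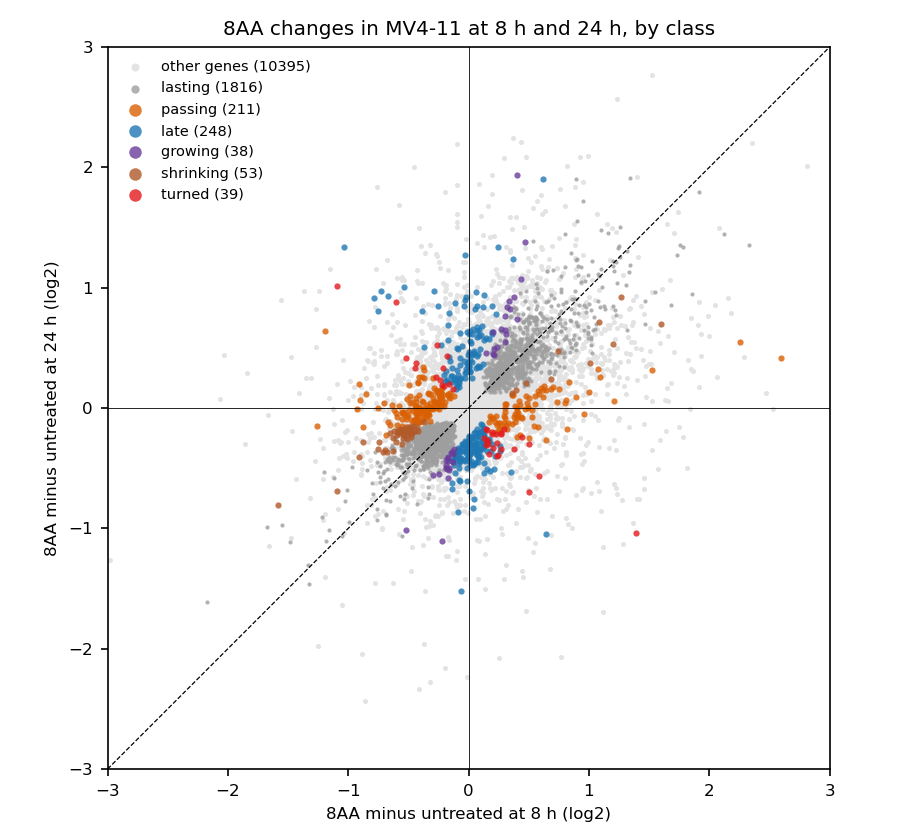
Each point is 1 of 12800 genes, with the log2 change with 8AA at 8 h on the x axis and at 24 h on the y axis in MV4-11, and colours mark the classes of time course (number of genes in brackets). Lasting genes lie near the dashed line of equal change, passing genes near the horizontal axis and late genes near the vertical axis, and 6 genes lie outside the axes.

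The called differences were small in most genes. Their absolute size had a median of 0.4055 and ranged from 0.2163 to 2.425 on the log2 scale, and 29 genes reached a 2-fold difference. At the threshold, PGK1 (log2 −0.229, adjusted p = 0.0494) and MRNIP (0.509, adjusted p = 0.0499) fell just inside the edgeR quasi-likelihood call, and PIP5KL1 (1.294, adjusted p = 0.0501) and HSPA1B (0.576, adjusted p = 0.0503) just outside. An unadjusted p under 0.05 was reached by 2552 genes.

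Single libraries bore on the number of calls. It was 118 without untreated 24 h replicate B, 165 without 8AA 24 h replicate A, 220 without untreated 8 h replicate B, 300 without untreated 24 h replicate A and 365 without 8AA 8 h replicate B. It stayed between 406 and 431 without any one of the other three. All 593 genes kept the sign of their difference in all 8 of these fits, and 93 kept the call in all 8. Genes described below with a value in every library belong to these 93 unless a lost call is named beside them.

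**Figure D2:**
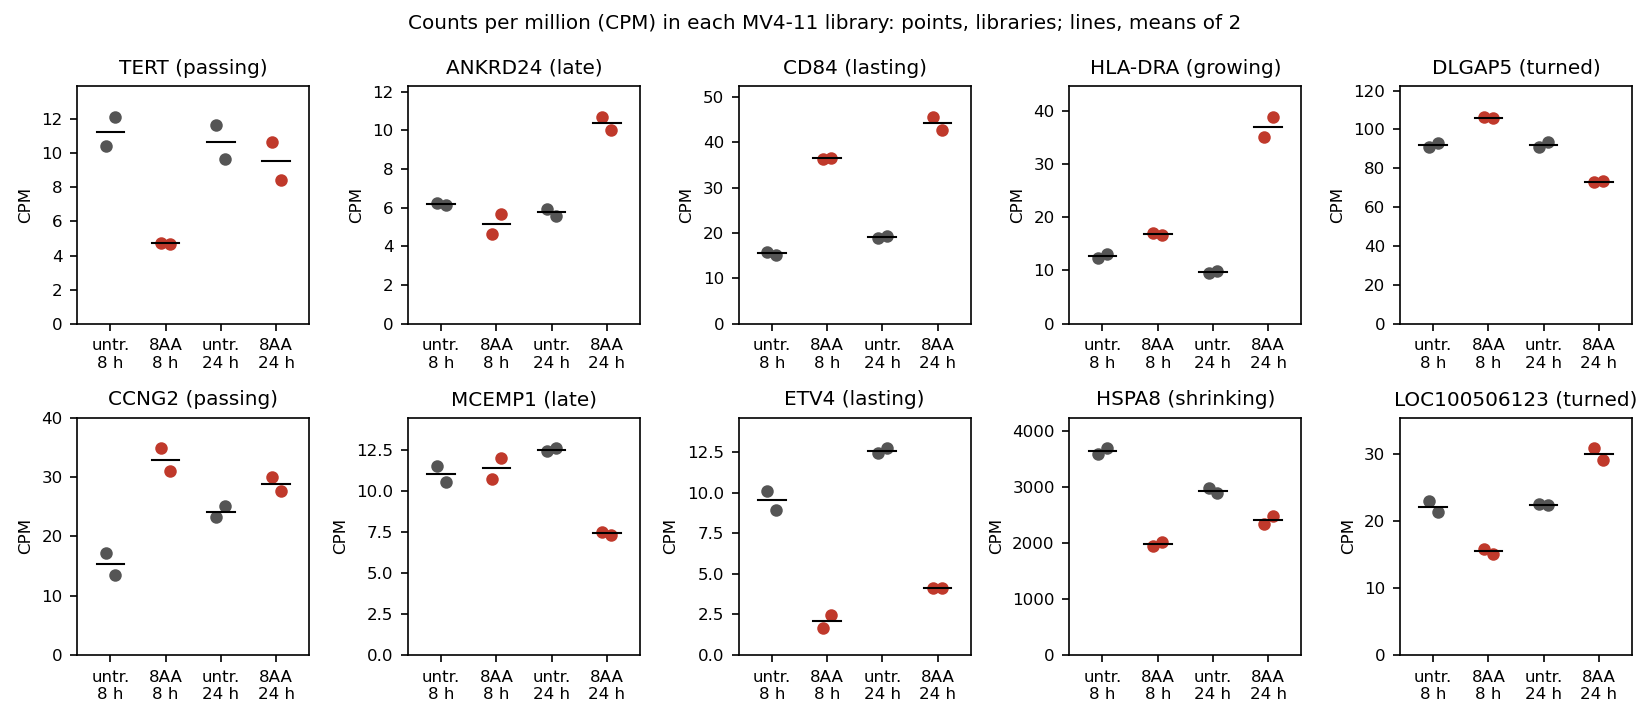
CPM (counts scaled to library size, from 0) in each of the 8 MV4-11 libraries for 10 genes, with grey points for untreated and red points for 8AA libraries and a line for the mean of 2. TERT and CCNG2 differed from untreated at 8 h and came closer to it at 24 h, ANKRD24 and MCEMP1 departed at 24 h, and HLA-DRA departed further at 24 h than at 8 h.

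The untreated cells themselves moved between the times, with 709 genes called (5.54%, 3.38% higher and 2.16% lower), and the cells with 8AA by 3266 (25.5%). Among the 593 genes with a called difference, 457 were called between the times only with 8AA, 57 only untreated, 52 in both and 27 in neither. Over all 12800 genes tested these counts were 2837, 280, 429 and 9254. The difference is the shift with 8AA minus the untreated shift, so this split follows in part from how the 593 were called. In 99 of the 593, and in 4832 of all 12800, the untreated shift was the larger of the pair. It reached 2-fold in 157 of all genes tested and in 9 of the 593. Of these 9, DDIT4, ICAM1, KLF2, TUBA1A, TSC22D3 and BCL3 had untreated shifts of 1.547, 1.545, 1.503, 1.24, 1.18 and 1.11 on the log2 scale. GBP3, ABCA1 and RRH are the others.

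**Figure D3:**
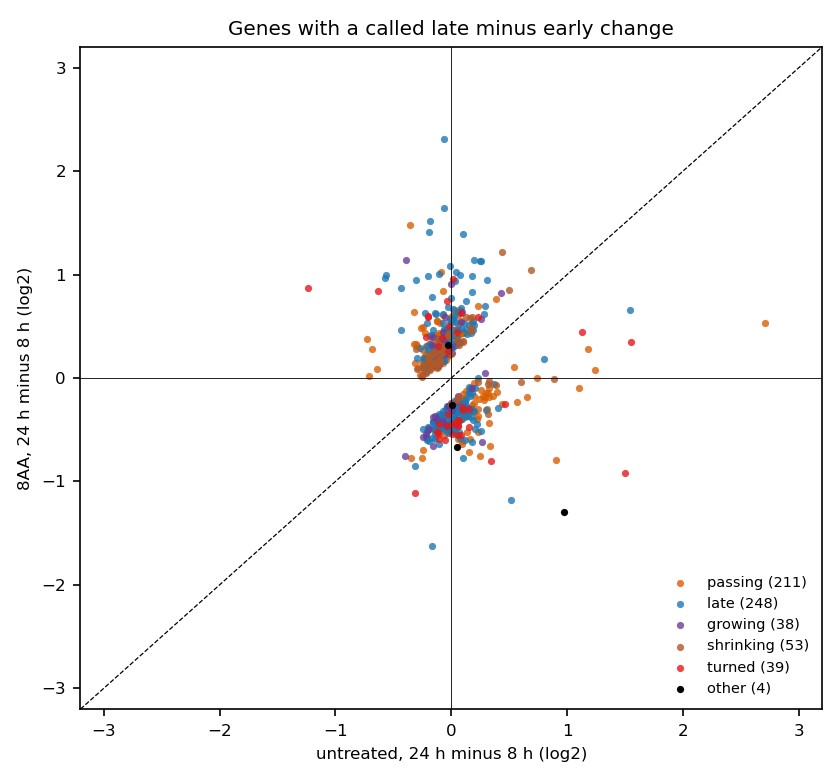
Each point is 1 of the 593 genes with a called late minus early change, with the 24 h minus 8 h shift in untreated cells on the x axis and that in cells with 8AA on the y axis, both on the log2 scale. The vertical distance from the dashed line is the late minus early change, and most points spread along the y axis near 0 on the x axis.

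Mitosis genes made up the group with the highest share of calls among the 47 lists. These genes build the spindle and the kinetochore, drive entry into mitosis and carry out its checkpoints. At 24 h all 40 genes of the list were lower with 8AA (median log2 change −0.353), whereas at 8 h 7 were higher, 3 were lower (CCNB1, CCNA2 and MAD2L1) and the median was 0.041. Over all genes tested, 13.6% were higher and 15.6% lower at 8 h, and 15.3% were lower at 24 h. The 7 higher genes at 8 h were thus not far from the share over all genes. Between the times, the change was called lower in 33 of the 40 (82.5%, against 2.12% of all genes tested), and it was below 0 in all 40, between −0.633 and −0.126 with a median of −0.404. By class, 24 were late falls, 7 rose at 8 h and fell at 24 h, 2 were falls that grew, 1 was a lasting fall (MAD2L1, a checkpoint protein) and 6 were undecided. Untreated cells shifted little between the times (median −0.003, with CCNB1, PLK1, CDC20 and UBE2C called lower), and cells with 8AA shifted by a median of −0.464, with 38 of 40 genes called lower. The count of 33 was 15 without 8AA 24 h replicate A and 19 without untreated 24 h replicate B and lay between 23 and 32 in the other 6 such fits, while the median stayed between −0.435 and −0.375.

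NDC80, a kinetochore protein that binds microtubules, stood at 57.5 and 58.5 CPM untreated and at 66.9 and 69.8 CPM with 8AA at 8 h, and at 62.4 and 60.5 CPM untreated and at 45.0 and 48.3 CPM with 8AA at 24 h. Both libraries with 8AA lay above the untreated pair at 8 h and below it at 24 h. Its late minus early change was −0.63 (SE 0.0872, adjusted p = 0.001365, edgeR quasi-likelihood test). NEK2, a kinase of centrosome separation, read 28.3 and 26.9 CPM untreated against 34.7 and 32.0 with 8AA at 8 h, and 28.0 and 29.4 against 22.6 and 22.8 at 24 h. Its libraries did not overlap at either time either, in opposite directions, and the difference was −0.61 (SE 0.0971, adjusted p = 0.003611). HMMR, a microtubule-associated protein of the spindle, had overlapping libraries at 8 h (121 and 109.6 CPM untreated, 134 and 118 with 8AA) and separate ones at 24 h (116 and 126 untreated, 87.3 and 88.9 with 8AA). Its difference of −0.59 (adjusted p = 0.007972) lost the call without untreated 24 h replicate B, where it was −0.53. CDC25C, the phosphatase that activates CDK1, differed by −0.58 (adjusted p = 0.03715), with a call in 1 of the 8 fits that left out a library and values between −0.64 and −0.51 in them.

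Some mitotic regulators fell late without a rise at 8 h. PLK1, the polo-like kinase, stood at 203 and 197 CPM untreated and 187 and 191 with 8AA at 8 h, and at 179.5 and 172 CPM untreated and 121 and 128 with 8AA at 24 h. CCNB1, which encodes cyclin B1, was already lower at 8 h, with 206 and 207 CPM against 219.8 and 231 untreated, and further so at 24 h, with 136 and 142 CPM against 189.9 and 190.3. The differences were −0.42 for PLK1 (SE 0.07, adjusted p = 0.004694) and −0.32 for CCNB1 (SE 0.0615, adjusted p = 0.009532) in the edgeR quasi-likelihood test. PLK1 and CCNB1 here, and CCNB2, DLGAP5, TPX2, CENPF, CENPE, BIRC5 and MAD2L1 below, were singled out after their values were seen. CDK1 and BUB1B, a catalytic partner of the cyclins and a checkpoint kinase, fell at 24 h (−0.44 and −0.35) with differences of −0.28 and −0.23 that did not pass (adjusted p = 0.08781 and 0.07844).

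The promoters of mitosis genes hold known letters that recruit cell cycle complexes, the cell cycle genes homology region (CHR) and the CCAAT box bound by NF-Y. The sequences below, windows of 300 bases around the start, were taken from RefSeq (GRCh38.p14) for 2 genes that rose at 8 h and fell at 24 h, and they show both motifs. CCNB2, which encodes cyclin B2, lies at chr15:59104896-59105195, plus strand, and DLGAP5, a spindle assembly protein, at chr14:55191536-55191835, minus strand. Capitals mark the CHR, TTTGAA or TTCAAA on the other strand, and the CCAAT box, CCAAT or ATTGG on the other strand.
CCNB2: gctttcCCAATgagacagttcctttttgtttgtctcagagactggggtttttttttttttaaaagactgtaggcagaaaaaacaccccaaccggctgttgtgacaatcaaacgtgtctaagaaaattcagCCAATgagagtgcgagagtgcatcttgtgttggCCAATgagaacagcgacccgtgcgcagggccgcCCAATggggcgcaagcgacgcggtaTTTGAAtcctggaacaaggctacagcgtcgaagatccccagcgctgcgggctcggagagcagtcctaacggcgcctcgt
DLGAP5: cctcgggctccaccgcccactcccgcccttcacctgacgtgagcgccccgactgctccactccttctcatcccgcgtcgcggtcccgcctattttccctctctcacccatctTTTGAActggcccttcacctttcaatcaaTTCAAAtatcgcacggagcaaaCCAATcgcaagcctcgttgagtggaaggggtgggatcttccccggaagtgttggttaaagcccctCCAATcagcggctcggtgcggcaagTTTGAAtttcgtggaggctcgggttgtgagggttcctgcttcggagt
The CHR letters were in 22 of the 33 list promoters in the RefSeq table (66.7%), in 938 of 9561 promoters of genes tested (9.81%) and in 15.4% of all 27305 promoters of that length. They were in 0 of the 31 promoters of DNA replication genes and in 10 of the 24 of genes that rose at 8 h and fell at 24 h (41.7%). The latter class is not separate from the mitosis list, which holds 7 of its 25 genes. The CHR letters were compared in 1 further list. They were in 4 of the 7 promoters of MHC class II genes (57.1%), which rose. CCAAT letters were in 25 of the 33 mitosis promoters (75.8%), in 18 of the 31 of replication genes (58.1%) and in 36.7% of those of genes tested. A match describes letters and is neither a bound site nor a cause. CCNB2 stood at 101 and 103 CPM untreated and 111 and 119 with 8AA at 8 h, and at 99.1 and 98.3 untreated and 72.4 and 79.5 with 8AA at 24 h, a difference of −0.55 (adjusted p = 0.001365). DLGAP5 stood at 91.0 and 93.0 CPM untreated and at 106 in both libraries with 8AA at 8 h, and at 90.9 and 93.5 untreated and 72.9 and 73.3 with 8AA at 24 h, a difference of −0.54 (adjusted p = 0.0004615).

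DNA replication genes were in part already lower at 8 h. Of 36 genes, 20 were lower at 8 h (median −0.197) and 35 at 24 h (median −0.359), and 20 were lasting falls. The late minus early change was called lower in 5 (13.9%, against 2.12%), namely PRIM2, RPA3, GINS4, POLA1 and TIMELESS, with a list median of −0.151. That count was 1 without 8AA 24 h replicate A, 2 without untreated 24 h replicate B or untreated 8 h replicate B, and 3 without untreated 8 h replicate A, 8AA 8 h replicate B or untreated 24 h replicate A. PRIM2, a primase subunit, stood at 29.5 and 31.8 CPM untreated and 34.0 and 35.7 with 8AA at 8 h, and at 35.4 and 33.6 untreated and 26.2 and 27.6 with 8AA at 24 h. Its libraries with 8AA were the higher at 8 h and the lower at 24 h, with a difference of −0.54 (SE 0.0965, adjusted p = 0.0065, edgeR quasi-likelihood test).

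Genes of nucleotide supply also held late falls. Of 13 such genes, 4 had a called lower difference (30.8%, against 2.12%), among them TK1, RRM1 and TYMS, and the list median was −0.164. TK1, the thymidine kinase of dividing cells, stood at 104 and 113 CPM untreated and 110.5 and 119 with 8AA at 8 h, where the pairs overlapped, and at 111 and 113 untreated and 80.0 and 84.1 with 8AA at 24 h, where they did not. Its difference was −0.53 (SE 0.0848, adjusted p = 0.003657). RRM1, a subunit of ribonucleotide reductase, differed by −0.31 (adjusted p = 0.00946) and lost the call without untreated 24 h replicate B, at −0.32 to −0.30 over the 8 fits. TYMS (−0.30), which makes thymidylate, kept the call in 5 of the 8 such fits.

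Proteasome subunits were lower in 12 of 31 genes at 8 h and 29 of 31 at 24 h, with medians of −0.103 and −0.312. The late minus early change was below 0 in 29 and was called lower in 6 (19.4%, against 2.12%), namely PSMD2, PSMB1, PSMD1, PSMC3, PSMB2 and PSMA7. PSMD2, a scaffold of the regulatory particle, stood at 387 CPM in both untreated libraries and 354 and 382 with 8AA at 8 h, and at 354 and 343 untreated and 256 and 268 with 8AA at 24 h. Its difference of −0.34 (SE 0.0657, adjusted p = 0.01004) was −0.31 without 8AA 24 h replicate A, where it lost the call. The count of 6 was 0 without that library, 1 without untreated 24 h replicate B, 2 without untreated 8 h replicate B and 3 without untreated 24 h replicate A or 8AA 8 h replicate B. Respiratory chain subunits, of which 42 were tested, were called higher in 1 gene at 8 h and lower in 22 at 24 h, with a median difference of −0.196. The difference was called lower in 2 genes (4.76%, against 2.12%), SDHA and NDUFS1. Neither of these kept its call in all 8 fits that left out a library (SDHA −0.38 to −0.23 and 2 calls, NDUFS1 −0.28 to −0.21 and 0 calls).

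**Figure D4:**
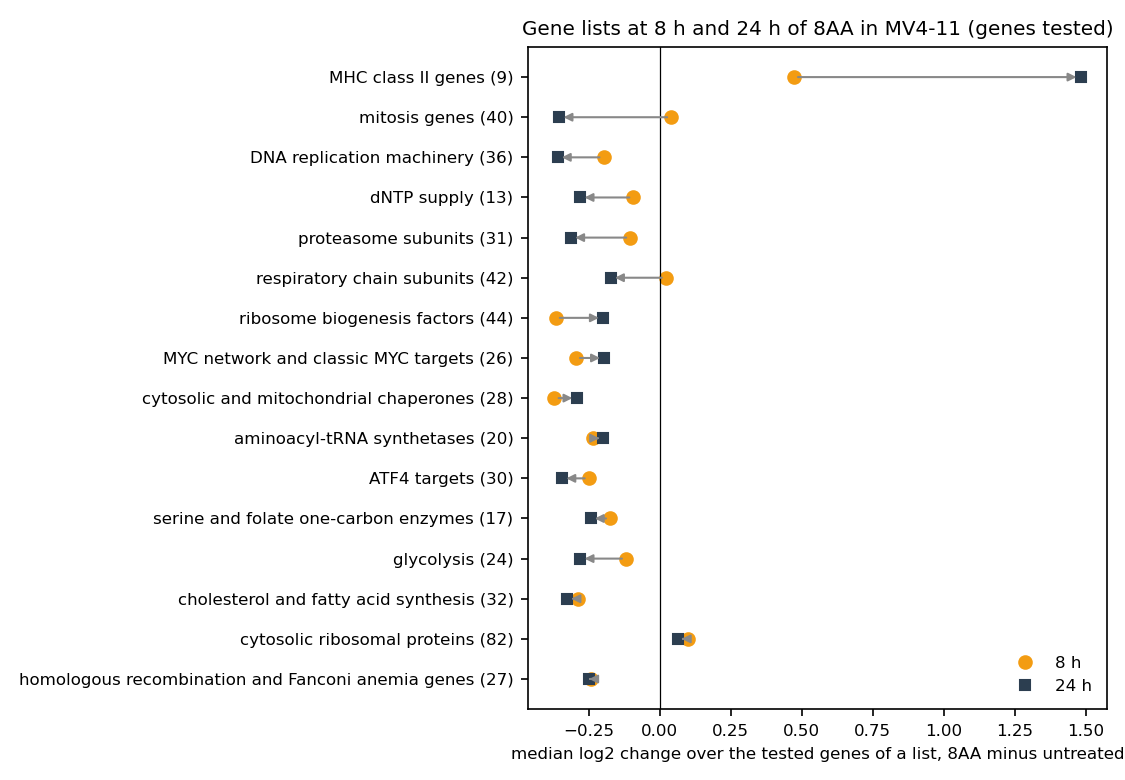
Median log2 change with 8AA over the tested genes of 16 lists in MV4-11 (number of genes in brackets), with orange circles for 8 h, dark squares for 24 h and an arrow from the earlier to the later time. Mitosis genes moved from 0.041 to −0.353 and MHC class II genes from 0.472 to 1.481, while ribosome biogenesis factors moved towards 0, from −0.366 to −0.199.

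Ribosome biogenesis factors took the opposite course, with an early fall that weakened. These proteins make and process ribosomal RNA in the nucleolus. At 8 h 41 of 44 were lower with 8AA (median −0.366), and at 24 h 31 of 44 (median −0.199). Between the times, the change moved up in 40 and was called higher in 10 (22.7%, against 2.51% of all genes tested), with a list median of 0.166, while 24 genes were lasting falls. Untreated cells shifted by a median of −0.1, with 7 genes called lower. Cells with 8AA shifted by a median of 0.079, with 15 called higher and 3 lower, so both shifts entered the difference. The count of 10 was 3 without untreated 24 h replicate B, 4 without 8AA 24 h replicate A, 5 without untreated 8 h replicate B and 6 without untreated 24 h replicate A or 8AA 8 h replicate A. MYBBP1A, a nucleolar MYB-binding protein, stood at 233 and 225 CPM untreated and 161 and 158 with 8AA at 8 h, and at 207 and 204 untreated and 192 and 193 with 8AA at 24 h. The libraries with 8AA were below the untreated ones at both times, by far less at 24 h, and the difference was 0.43 (SE 0.0589, adjusted p = 0.001365). NIP7, a factor of ribosomal RNA processing, and RRP12, a factor of subunit export, had changes of −0.59 and −0.60 at 8 h and −0.18 and −0.22 at 24 h. Their differences of 0.40 and 0.38 were called in all 8 fits that left out a library.

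The E-box CACGTG, the letters bound by MYC and related factors, was in 12 of the 37 promoters of ribosome biogenesis factors (32.4%), in 10.4% of those of genes tested and in 7.43% of all promoters of that length. The letters read the same on both strands. The MYBBP1A promoter (chr17:4555335-4555634, minus strand, RefSeq, GRCh38.p14) is shown because its gene had the largest called difference of this list, with the E-box in capitals.
MYBBP1A: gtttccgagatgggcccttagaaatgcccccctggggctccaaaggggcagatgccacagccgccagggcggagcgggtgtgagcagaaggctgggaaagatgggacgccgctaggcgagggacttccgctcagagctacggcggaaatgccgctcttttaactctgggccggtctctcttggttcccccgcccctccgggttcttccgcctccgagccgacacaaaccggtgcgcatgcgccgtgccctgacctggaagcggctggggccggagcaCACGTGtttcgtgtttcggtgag
MYC itself, the transcription factor that drives growth genes, stood at 677 and 684 CPM untreated and 495 and 509.7 with 8AA at 8 h, and at 590.0 and 582 untreated and 603 and 642 with 8AA at 24 h. The pair with 8AA was the lower at 8 h and the higher at 24 h, although the 24 h change of 0.09 did not pass (adjusted p = 0.1577). The difference was 0.53 (SE 0.0632, adjusted p = 0.0006299, edgeR quasi-likelihood test), beside an untreated shift of −0.22.

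Of 26 genes of the MYC network and its classic targets, 19 were lower at 8 h and 16 at 24 h. The difference was called higher in 4 (MYC, TERT, TFRC and MNT, 15.4% against 2.51% of all genes tested) and lower in 1 (LDHA, 3.85% against 2.12%). TERT, the reverse transcriptase of telomerase, had the largest called difference among passing falls that met the rule for naming. It stood at 10.4 and 12.1 CPM untreated and 4.72 and 4.70 with 8AA at 8 h, and at 11.7 and 9.66 untreated and 10.7 and 8.43 with 8AA at 24 h. The pairs were separate at 8 h (log2 change −1.26) and overlapped at 24 h (−0.15), and the difference was 1.11 (SE 0.216, adjusted p = 0.0101). It lost the call without untreated 24 h replicate B (0.98) or 8AA 24 h replicate A (0.92). TFRC, the transferrin receptor that brings in iron, fell from 715 and 712 CPM to 436 and 414 at 8 h, and from 764 and 793 to 650.3 and 627 at 24 h. That fall of −0.75 at 8 h and −0.29 at 24 h gave a difference of 0.46 (SE 0.0605, adjusted p = 0.00116). MNT, a repressor that competes with MYC, differed by 0.43 and lost the call without untreated 24 h replicate B (0.41).

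Chaperones, which fold new and damaged proteins, were lower in 24 of 28 genes at 8 h and 23 of 28 at 24 h, and 19 were lasting falls. HSPA8, HSPA1A and DNAJA1 had a called higher difference (10.7% of the list, against 2.51% of all genes tested). Untreated cells shifted by a list median of −0.146 between the times, with 11 genes called lower. Cells with 8AA shifted by −0.052, with 2 called higher and 9 lower. HSPA8, the constitutive HSP70, stood at 3587 and 3693 CPM untreated and 1941 and 2028 with 8AA at 8 h, and at 2993 and 2889 untreated and 2350.1 and 2483 with 8AA at 24 h. The untreated and treated pairs were separate at both times and closer at 24 h, with a difference of 0.59 (SE 0.0639, adjusted p = 0.0002463, edgeR quasi-likelihood test). HSPA1A, a stress-induced HSP70 whose reads may be shared with its near-identical copy HSPA1B, stood at 59.0 and 52.0 CPM untreated and 30.7 and 29.6 with 8AA at 8 h, and at 30.9 and 37.1 untreated and 30.4 and 30.6 with 8AA at 24 h. Its levels with 8AA were alike at both times while the untreated level fell by 0.71, and its difference was 0.72 (adjusted p = 0.004096). DNAJA1, a partner of HSP70, fell by 0.56 at 8 h and by 0.30 at 24 h, and its difference of 0.26 kept the call in 3 of 8 fits that left out a library.
The HSPA8 promoter (chr11:123062087-123062386, minus strand, RefSeq, GRCh38.p14) is shown with the core of the heat shock element, GAANNTTC on both strands, in capitals. These letters were in 8 of the 26 chaperone promoters (30.8%), in 4.53% of those of genes tested and in 6.87% of all promoters of that length.
HSPA8: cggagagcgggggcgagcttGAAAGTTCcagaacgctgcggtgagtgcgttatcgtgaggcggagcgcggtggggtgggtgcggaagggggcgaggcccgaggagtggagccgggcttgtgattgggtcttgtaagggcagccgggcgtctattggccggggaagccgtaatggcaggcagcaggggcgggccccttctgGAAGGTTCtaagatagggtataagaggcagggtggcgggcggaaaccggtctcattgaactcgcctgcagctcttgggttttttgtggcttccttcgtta

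MHC class II genes, which present peptides to helper T cells, rose early and rose further. Of 9 genes, 6 were higher at 8 h (median 0.472) and all 9 at 24 h (median 1.481). The difference between the times was above 0 in all 9, with a median of 0.911, and was called in 4 (44.4%, against 2.51%), namely HLA-DRA, HLA-DPA1, HLA-DMA and CD74. The untreated level shifted by a median of −0.161 with 0 of 9 genes called, while edgeR gave 6 of 9 as higher at 24 h than at 8 h with 8AA. HLA-DRA, the alpha chain of HLA-DR, stood at 12.4 and 13.0 CPM untreated and 17.0 and 16.6 with 8AA at 8 h, and at 9.46 and 9.89 untreated and 35.2 and 38.9 with 8AA at 24 h. CD74, the invariant chain that guides class II molecules, stood at 214 and 218 CPM untreated and 267 and 272 with 8AA at 8 h, and at 205 and 206 untreated and 353 and 379.5 with 8AA at 24 h. In both genes the 8AA pair lay above the untreated pair at each time, with differences of 1.54 (SE 0.164, adjusted p = 0.0002463) and 0.52 (SE 0.0685, adjusted p = 0.00119). HLA-DMA, a peptide exchange factor, differed by 0.91 and lost the call without untreated 24 h replicate B (0.82). HLA-DPA1, near 1 to 5 CPM, differed by 1.29 and lost it in each of the 8 fits (1.16 to 1.42). CIITA, the master regulator of these genes, rose at both times, from 4.87 and 6.83 CPM to 11.99 and 13.2 at 8 h and from 7.96 and 7.36 to 22.8 and 19.98 at 24 h, and its difference of 0.38 did not pass (adjusted p = 0.2711). HLA-DRB1, whose reads can be split with related genes, rose at both times (0.43 and 0.96) with a difference of 0.53 that did not pass (adjusted p = 0.1304).
The CD74 promoter (chr5:150412861-150413160, minus strand, RefSeq, GRCh38.p14) is shown with its CCAAT box in capitals, letters found in 6 of the 7 promoters of this list in the table (85.7%), in 36.7% of those of genes tested and in 35.7% of all promoters of that length.
CD74: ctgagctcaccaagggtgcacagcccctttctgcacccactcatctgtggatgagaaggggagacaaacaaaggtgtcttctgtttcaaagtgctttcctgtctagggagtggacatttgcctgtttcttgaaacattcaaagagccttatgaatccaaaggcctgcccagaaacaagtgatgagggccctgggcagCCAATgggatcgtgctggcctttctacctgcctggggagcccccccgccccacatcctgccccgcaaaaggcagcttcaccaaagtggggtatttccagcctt

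MAT2A, which makes S-adenosylmethionine from methionine and which the study followed, showed a passing fall of its total count. It stood at 689 and 698 CPM untreated and 520.2 and 523 with 8AA at 8 h, and at 665 and 637 untreated and 652 in both libraries with 8AA at 24 h. The pairs were separate at 8 h (log2 change −0.41, adjusted p = 3.75e-06), and at 24 h the 8AA values lay between the untreated ones (0.00, adjusted p = 0.9828). The late minus early change was 0.41 (SE 0.057, adjusted p = 0.001365, edgeR quasi-likelihood test), and it stayed between 0.38 and 0.44 and called in all 8 fits that left out a library. METTL16, the methyltransferase that acts on MAT2A RNA, was a lasting fall, from 91.9 and 94.4 CPM to 75.2 and 77.0 at 8 h and from 92.3 and 87.9 to 81.5 and 78.3 at 24 h. Its difference of 0.12 did not pass (adjusted p = 0.4092). Counts per gene do not separate spliced from intron-retaining RNA, so retention was not measured here. Of 32 genes of cysteine and methionine metabolism, 12 were lower at 8 h and 14 at 24 h, beside 15.6% and 15.3% of all genes tested, and 9 were lasting falls. MAT2A (higher) and LDHA (lower) had a called difference, each 3.12% of the list. These shares were near the 2.51% higher and 2.12% lower of all genes tested.

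Targets of ATF4, the factor of the amino acid response, were lower in 17 of 30 genes at 8 h and 19 at 24 h, with 13 lasting falls. Called differences were found for SLC7A5 and PYCR1 (higher, 6.67% of the list against 2.51% of all genes tested) and for DDIT4 and PHGDH (lower, 6.67% against 2.12%). PHGDH, the first enzyme of serine synthesis, stood at 45.5 and 46.6 CPM untreated and 39.7 and 39.2 with 8AA at 8 h, and at 53.9 and 56.6 untreated and 22.8 and 28.6 with 8AA at 24 h. The pair with 8AA was the lower at both times, by far more at 24 h, with a difference of −0.88 (SE 0.11, adjusted p = 0.0007733, edgeR quasi-likelihood test). SLC7A5, the transporter of leucine and other large amino acids, went the other way. It stood at 633 and 645 CPM untreated and 288 and 312 with 8AA at 8 h, and at 585 and 577 untreated and 354 and 366 with 8AA at 24 h, and its fall of −1.09 weakened to −0.69 (difference 0.40, SE 0.0695, adjusted p = 0.00563). DDIT4, an inhibitor of mTORC1, stood at 8.68 and 8.73 CPM untreated and 12.6 and 12.05 with 8AA at 8 h, and at 20.8 and 29.98 untreated and 13.9 and 17.6 with 8AA at 24 h. Its rise at 8 h and lower level at 24 h gave a difference of −1.20 (adjusted p = 0.0065), beside the untreated rise of 1.55. PYCR1, an enzyme of proline synthesis, differed by 0.37 and lost the call in each of the 8 fits (0.31 to 0.42).

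Other metabolic lists varied in their share of called differences. Of 17 serine and folate one-carbon enzymes, 4 had a called lower difference (23.5%, against 2.12% of all genes tested) and 0 a higher one. Glycolysis genes were lower in 10 of 24 at 8 h and 20 at 24 h. The difference was called lower in 4 (PFKFB4, TPI1, LDHA and PGK1, 16.7% against 2.12% of all genes tested) and higher in HK2, a hexokinase (4.17% against 2.51%). PFKFB4, TPI1, LDHA and HK2 kept the call in 3, 2, 3 and 1 of the 8 fits that left out a library. LDHA, which turns pyruvate into lactate and whose reads may be shared with pseudogenes, stood at 1341 and 1353 CPM untreated and 1081 and 1118 with 8AA at 8 h, and at 1372 and 1409 untreated and 911 and 978 with 8AA at 24 h. Its fall grew by −0.27 (adjusted p = 0.02322), with a call in 3 of the 8 fits and values between −0.32 and −0.22. Cholesterol and fatty acid synthesis genes were lower with 8AA in 19 of 32 at 8 h and 20 at 24 h, while 27 of them rose between the times in untreated cells (median 0.473) and 24 with 8AA (median 0.506). SQLE, an enzyme of sterol synthesis, differed by 0.35 and FDPS, of isoprenoid synthesis, by −0.25, with 4 and 2 calls in the 8 fits. In de novo purine synthesis 8 of 13 genes were lasting falls and PFAS alone had a called difference (0.23, in 0 of the 8 fits).

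In the lists of signalling to the nucleus most members were uncalled or undecided, and some were lasting falls. EGR1, an immediate early factor, fell from 8.43 and 5.87 CPM to 2.51 and 2.35 at 8 h and from 8.11 and 7.22 to 3.84 and 3.98 at 24 h. ETV4, an ETS factor induced by ERK, fell from 10.1 and 8.96 CPM to 1.67 and 2.48 at 8 h and from 12.5 and 12.7 to 4.11 and 4.12 at 24 h, and TNF, an inflammatory cytokine, from 11.8 and 11.9 to 5.06 and 4.46 and from 13.0 and 15.04 to 5.12 and 5.07. All 3 had separate pairs at each time and late minus early changes of 0.58, 0.56 and −0.14 that did not pass (adjusted p = 0.2113, 0.1445 and 0.7064). Called shrinking falls were found for ETV5 (0.78), another ETS factor of the ERK list, in 0 of the 8 fits that left out a library, and for FOSL1 (0.50), an AP-1 subunit, in 1. ERK feedback genes were lower in 7 of 14 at 8 h and 5 at 24 h, beside 15.6% and 15.3% of all genes tested, with 0 called higher by edgeR. Immediate early and AP-1 genes were higher in 5 and lower in 5 of 28 at 8 h (median −0.034, beside 13.6% and 15.6% of all genes tested), and 10 were lower at 24 h. NF-kappaB targets were higher in 4 and lower in 3 of 17 at 8 h and higher in 2 and lower in 4 at 24 h. Over all genes tested the shares were 13.6% higher and 15.6% lower at 8 h, and 13.9% and 15.3% at 24 h. Of the other members called, KLF6 and KLF2 of the immediate early list and ICAM1 and BCL3 of the NF-kappaB list had lower differences (−0.50, −2.42, −0.88 and −1.20), with calls in 2, 3, 1 and 1 of the 8 fits. Their untreated shifts were 0.32, 1.503, 1.545 and 1.11.

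Some single genes had early rises that faded. DDB2, a DNA damage recognition protein and p53 target, stood at 85.5 and 91.3 CPM untreated and 115 and 118 with 8AA at 8 h, and at 86.0 and 86.9 untreated and 87.3 and 85.4 with 8AA at 24 h. The pairs were separate at 8 h and overlapped at 24 h, with a difference of −0.40 (SE 0.07, adjusted p = 0.005826, edgeR quasi-likelihood test). Of 29 p53 targets 7 were higher and 6 lower at 8 h and 3 higher and 5 lower at 24 h, beside 13.6% and 15.6% of all genes tested at 8 h and 13.9% and 15.3% at 24 h, and SESN1, a sestrin, was the other member with a called difference (−0.43, 4 of 8 fits). BMF, a BH3-only protein that promotes apoptosis, rose from 28.2 and 27.6 CPM to 59.9 and 58.8 at 8 h and from 33.4 and 36.3 to 55.6 and 58.6 at 24 h, with a difference of −0.38 that was called in 2 of the 8 fits. CSF1R, the receptor of macrophage colony-stimulating factor, rose by 0.69 at 8 h and 0.24 at 24 h (difference −0.45), and lost the call without untreated 24 h replicate B or 8AA 24 h replicate A, with values of −0.49 to −0.40 in the 8 fits. IL2RA, a receptor chain and STAT5 target, rose by 0.59 at 8 h and had no called change at 24 h (0.12), with a difference of −0.47 (adjusted p = 0.009737) that lost its call without the same libraries (−0.55 to −0.39). STAT2 and IFITM1 of the interferon list differed by −0.27 and 0.39, with 0 and 2 calls in the 8 fits. Surface molecules CD44, CSF2RB and CD33 rose late, by 0.35, 0.36 and 0.23 at 24 h, with differences of 0.27, 0.43 and 0.32 and 6, 7 and 1 calls in the 8 fits.

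Among all genes, passing falls with the largest difference under the rule for naming were TERT, ZDHHC11, VPS9D1-AS1, KCNC4 and PRR5. VPS9D1-AS1, an RNA antisense to VPS9D1, stood at 44.9 and 45.6 CPM untreated and 24.8 and 25.5 with 8AA at 8 h, and at 38.1 and 34.3 untreated and 41.6 and 36.6 with 8AA at 24 h. Its pairs were separate at 8 h and overlapped at 24 h, and the difference was 0.96 (SE 0.102, adjusted p = 0.0002463, edgeR quasi-likelihood test). Whether the counting used strand is not stated, and reads of this RNA and of its partner cannot be told apart. KCNC4, a voltage-gated potassium channel, went from 8.63 and 9.47 CPM to 4.52 and 4.95 at 8 h and from 8.71 and 8.49 to 9.15 and 7.91 at 24 h (difference 0.92). PRR5, a subunit of mTORC2, differed by 0.75 and lost the call without untreated 24 h replicate B or 8AA 24 h replicate A (0.68 to 0.82 over the 8 fits). ZDHHC11, which has a near-identical neighbour, differed by 0.97 with a call in 3 of the 8 fits and an untreated shift of −0.68.

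Under the same rule, passing rises were led by TUBA1A, SORL1, TSC22D3, MYBPH and CCNG2. MYBPH, a myosin-binding protein, stood at 35.9 and 38.6 CPM untreated and 72.7 and 76.6 with 8AA at 8 h, and at 40.4 and 42.7 untreated and 43.6 and 47.6 with 8AA at 24 h. The pairs stood apart at 8 h and much closer at 24 h, with a difference of −0.87 (SE 0.0989, adjusted p = 0.0004102). CCNG2, an atypical cyclin linked to growth arrest, rose from 17.3 and 13.5 CPM to 34.8 and 30.9 at 8 h. At 24 h it stood at 23.2 and 25.02 untreated and 29.9 and 27.6 with 8AA (difference −0.84, SE 0.144, adjusted p = 0.0052, edgeR quasi-likelihood test). Its mean untreated level rose from 15.39 to 24.13 CPM between the times, while that with 8AA went from 32.86 to 28.78. The 8AA pair still lay above the untreated pair at 24 h. TUBA1A, an alpha-tubulin whose reads can be shared with its paralogs, stood at 4.16 CPM in both untreated libraries at 8 h against 8.89 and 10.3 with 8AA, and at 8.62 and 11.0 untreated against 9.94 and 10.5 at 24 h. Its level with 8AA was alike at both times while the untreated level shifted by 1.24, giving a difference of −1.16 (adjusted p = 0.003837). TSC22D3, a glucocorticoid-induced leucine zipper protein, stood at 8.43 and 10.1 CPM untreated and 12.8 and 15.9 with 8AA at 8 h. At 24 h it stood at 19.2 and 22.8 untreated and 17.2 and 17.8 with 8AA, so its level rose in both conditions. The untreated shift of 1.18 was the larger, with a difference of −0.90 and a lost call without untreated 24 h replicate B (−0.77). SORL1, a sorting receptor, differed by −1.01 with calls in 4 of the 8 fits (−1.20 to −0.85).

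Under the same rule, late rises were led by ANKRD24, C10orf35, ZNF514, CSMD3 and HSF4. ANKRD24, an ankyrin repeat protein, stood at 6.22 and 6.14 CPM untreated and 4.62 and 5.65 with 8AA at 8 h, and at 5.95 and 5.55 untreated and 10.7 and 10.0 with 8AA at 24 h. CSMD3, which encodes a large membrane protein with CUB and sushi domains, stood at 12.7 and 15.7 CPM untreated and 14.1 and 14.0 with 8AA at 8 h, and at 17.0 and 15.7 untreated and 32.7 and 29.1 with 8AA at 24 h. Both stood clearly apart only at 24 h, and the differences were 1.11 (SE 0.176, adjusted p = 0.003591) and 0.94 (SE 0.142, adjusted p = 0.002308) in the edgeR quasi-likelihood test. HSF4, a heat shock factor, ZNF514, a zinc finger protein, and C10orf35 differed by 0.93, 0.95 and 0.98, with calls in 5, 4 and 3 of the 8 fits that left out a library. TMEM9B-AS1, an antisense RNA below the level limit of that rule, went from 2.30 and 2.48 CPM untreated to 5.88 and 6.25 with 8AA at 24 h (difference 1.09), with calls in 5 of the 8 fits.

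Under the same rule, late falls were led by ICAM1, FAM129A, MCEMP1, LAPTM4B and PSRC1. MCEMP1, a membrane protein of mast cells and monocytes, stood at 11.5 and 10.6 CPM untreated and 10.8 and 12.01 with 8AA at 8 h, and at 12.4 and 12.6 untreated and 7.51 and 7.34 with 8AA at 24 h. PSRC1, a spindle protein that binds microtubule ends and is not in the mitosis list, stood at 21.7 and 19.9 CPM untreated and 22.5 and 25.3 with 8AA at 8 h, and at 22.3 and 22.7 untreated and 15.8 and 15.9 with 8AA at 24 h. The differences were −0.80 (SE 0.145, adjusted p = 0.006832) and −0.71 (SE 0.115, adjusted p = 0.003798). FAM129A, also known as niban, fell by 0.83 at 24 h, with a difference of −0.87 that was called in 5 of the 8 fits (−1.07 to −0.67). LAPTM4B, a lysosomal membrane protein, differed by −0.77 with a call in 1 of the 8 fits.

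Of the turned genes, IL7R, the interleukin 7 receptor, stood at 26.7 and 27.3 CPM untreated and 38.2 and 38.5 with 8AA at 8 h, and at 21.4 and 22.2 untreated and 17.9 and 17.5 with 8AA at 24 h. LOC100506123, an uncharacterized transcript, went from 23.0 and 21.3 CPM to 15.9 and 15.1 at 8 h and from 22.5 and 22.4 to 30.9 and 29.1 at 24 h. In each gene the pair with 8AA was on opposite sides of the untreated pair at the 2 times. The differences were −0.80 (SE 0.106, adjusted p = 0.00116) and 0.94 (SE 0.121, adjusted p = 0.001105) in the edgeR quasi-likelihood test. EPHB4, an ephrin receptor, FLJ42627 and TRIM36, a ubiquitin ligase, differed by 0.81, 0.78 and −0.72, with calls in 4, 5 and 2 of the 8 fits.

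Under that rule, the lasting rises with the largest change at both times were SHISA3, CD84 and CIITA. CD84, a SLAM family receptor of leukocytes, rose from 15.9 and 15.2 CPM to 36.4 and 36.6 at 8 h and from 18.9 and 19.2 to 45.6 and 42.8 at 24 h. SHISA3, an endoplasmic reticulum protein that damps Wnt and FGF signalling, rose from 4.67 and 3.46 CPM to 10.8 and 8.58 and from 3.23 and 2.89 to 7.55 and 8.00. The pairs were separate at each time in both genes, and the differences of −0.02 (SE 0.0958) and 0.10 (SE 0.237) did not pass, with adjusted p = 0.9498 and 0.8676 in edgeR's test. Both differences changed sign when 1 of the libraries was left out, with ranges of −0.06 to 0.03 and −0.13 to 0.30.

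In 8 of the 47 lists no member was called between the times by edgeR. Aminoacyl-tRNA synthetases, which charge tRNAs, were lower in 15 of 20 genes at 8 h and 17 at 24 h, 15 of them lasting falls, with 0 called differences in edgeR and a median of −0.012. Homologous recombination and Fanconi anemia genes were lower in 15 and 20 of 27, with 0 called differences. Cytosolic ribosomal proteins moved little, with 70 of 82 uncalled throughout, 5 higher and 2 lower at 8 h, 3 higher and 3 lower at 24 h, and medians of 0.098 at 8 h and 0.063 at 24 h. Members also reached 0 calls in the lists of transcription elongation control, cleavage and polyadenylation factors, snoRNA host transcripts, TXNIP and arrestin-domain genes, and myeloid and stem cell transcription factors. An unadjusted p under 0.05 was reached by 4 of the 20 aminoacyl-tRNA synthetases, 7 of the 27 recombination and Fanconi anemia genes, 3 of the 82 ribosomal proteins, 3 of 28 elongation factors, 1 of 20 cleavage factors, 4 of 18 snoRNA hosts, 2 of 8 arrestin-domain genes and 2 of 19 transcription factors, and DESeq2 called 0 in each of these lists. A difference that was not called is not shown to be absent.

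Long genes stood slightly higher late. The 344 genes spanning 300 kb or more had median changes of 0.086 at 8 h and 0.137 at 24 h, a median difference of 0.049, and 4.07% called higher against 0.872% called lower. The 3094 genes under 10 kb had a median difference of −0.008, with 1.94% higher and 1.84% lower. Among genes with 8 kb or more of exons, 4.44% were called higher and 1.11% lower, with a median of 0.061. The median of the longest genes stayed between 0.022 and 0.067 in the fits that left out a library. These are descriptions over genes and carry no test.

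With 8CA at the same dose and times, 2088 genes (16.3%, 6.48% higher and 9.83% lower) had a called late minus early change in MV4-11, a comparison that shares its untreated libraries with that of 8AA. The test of 8AA against 8CA needs no untreated library, and it called 979 genes (7.65%), 655 (5.12%) with a higher and 324 (2.53%) with a lower value for 8AA. The count was 365 without 8CA 24 h replicate A, 408 without 8AA 24 h replicate B, 494 without 8CA 8 h replicate B and 548 without 8AA 8 h replicate A. PHGDH separated the compounds most among the genes named here, at −0.88 with 8AA and 1.16 with 8CA (difference −2.04, 95% interval −2.265 to −1.81, adjusted p = 4.159e-08 over the 12800 genes tested). FAM129A followed, at −0.87 and 0.96 (difference −1.83, 95% interval −2.194 to −1.468, adjusted p = 1.133e-05). HLA-DRA was higher with 8AA, at 1.54 against 0.82 (difference 0.71, 95% interval 0.389 to 1.041, adjusted p = 0.0105). For MAT2A the values were 0.41 and 0.30, a difference of 0.11 (95% interval −0.008 to 0.235) that did not pass (adjusted p = 0.2539).

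Mitosis genes fell late with both analogs. The list medians of the late minus early change were −0.404 with 8AA and −0.41 with 8CA, with 33 and 35 of 40 genes called lower, and the difference between the compounds was called in 1 of the 40, CENPF, a kinetochore protein (−0.22, adjusted p = 0.04719). For CCNB2 the difference was −0.12 (95% interval −0.284 to 0.038) and for TPX2, a spindle assembly factor, −0.12 (−0.259 to 0.013), both intervals ending short of the 8AA changes of −0.55 and −0.49. In other members the interval, which is not adjusted over genes, left out 0. It lay below 0 for CENPE, DLGAP5 (−0.337 to −0.07), NDC80 and NEK2, and above 0 for BIRC5, CCNB1 (0.049 to 0.313) and MAD2L1. These members did not pass the adjusted test. In MHC class II genes the median was 0.395 with 8CA against 0.911 with 8AA, and the difference was called in 3 of 9 (HLA-DRA, HLA-DPA1 and CD74). Ribosome biogenesis factors had a median of 0.057 with 8CA against 0.166, with 8 of 44 called, and DNA replication genes −0.446 against −0.151, with 17 of 36 called.

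In KG-1a, 8AA gave another order of events. In a fit of all 24 libraries with 14055 genes, the late minus early change was called for 630 genes in MV4-11 (4.48%, 2.36% lower) and 2398 in KG-1a (17.1%, 7.59% higher). Both lines called 113 genes in the same direction (17.9% and 4.71% of the lists) and 106 in opposite directions (16.8% and 4.42%). The cell lines differed in 1235 genes (8.79%), 673 (4.79%) with a higher and 562 with a lower value in MV4-11. The KG-1a libraries with 8AA at 24 h were the least alike of all pairs, with a chi-square of 12.25 per degree of freedom against 2.56 to 5.201 in MV4-11, and the count was 1759 without replicate A of that group and 1381 without replicate B. Across genes the changes of the lines had a Pearson r of 0.0175 over 14055 genes, which are not independent replicates.

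The mitosis genes differed between the lines as a group. In KG-1a, 3 of 40 were higher (CDC25C, NDC80 and TTK) and 12 lower at 8 h, and 23 were higher and 4 lower (CCNB1, PLK1, MAD2L1 and CDC20) at 24 h, with medians of −0.055 and 0.166. Over all genes of that fit, 14.1% were higher and 17.1% lower with 8AA at 8 h in KG-1a, and 22.8% and 23.8% at 24 h. The late minus early change was called higher in 16 of 40 and lower in 0, with a median of 0.219, against −0.404 in MV4-11. The difference between the lines was called in 36 of the 40, with the value lower in MV4-11 in all 36. For NEK2 it was −1.12 (95% interval −1.35 to −0.88, adjusted p = 1.609e-06) and for NDC80 −0.89 (−1.119 to −0.655, adjusted p = 2.151e-05) in the edgeR quasi-likelihood test. Ribosome biogenesis factors differed the other way, with 42 of 44 lower at 24 h in KG-1a, a median late minus early change of −0.299 there against 0.166 in MV4-11, and 30 genes called higher in MV4-11. TFRC (1.13), RRP12 (1.04) and MYBBP1A (0.93) had called differences between the lines. Members of the MHC class II list were hard to compare between the lines. In the KG-1a libraries CD74 was at 0, HLA-DRA at or below 0.0432 CPM and HLA-DMA at 0.0522 to 0.425 CPM. Of the 9 genes, 1 was called higher with 8AA at 24 h in KG-1a, and the late minus early change was called in 0 there.

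**Figure D5:**
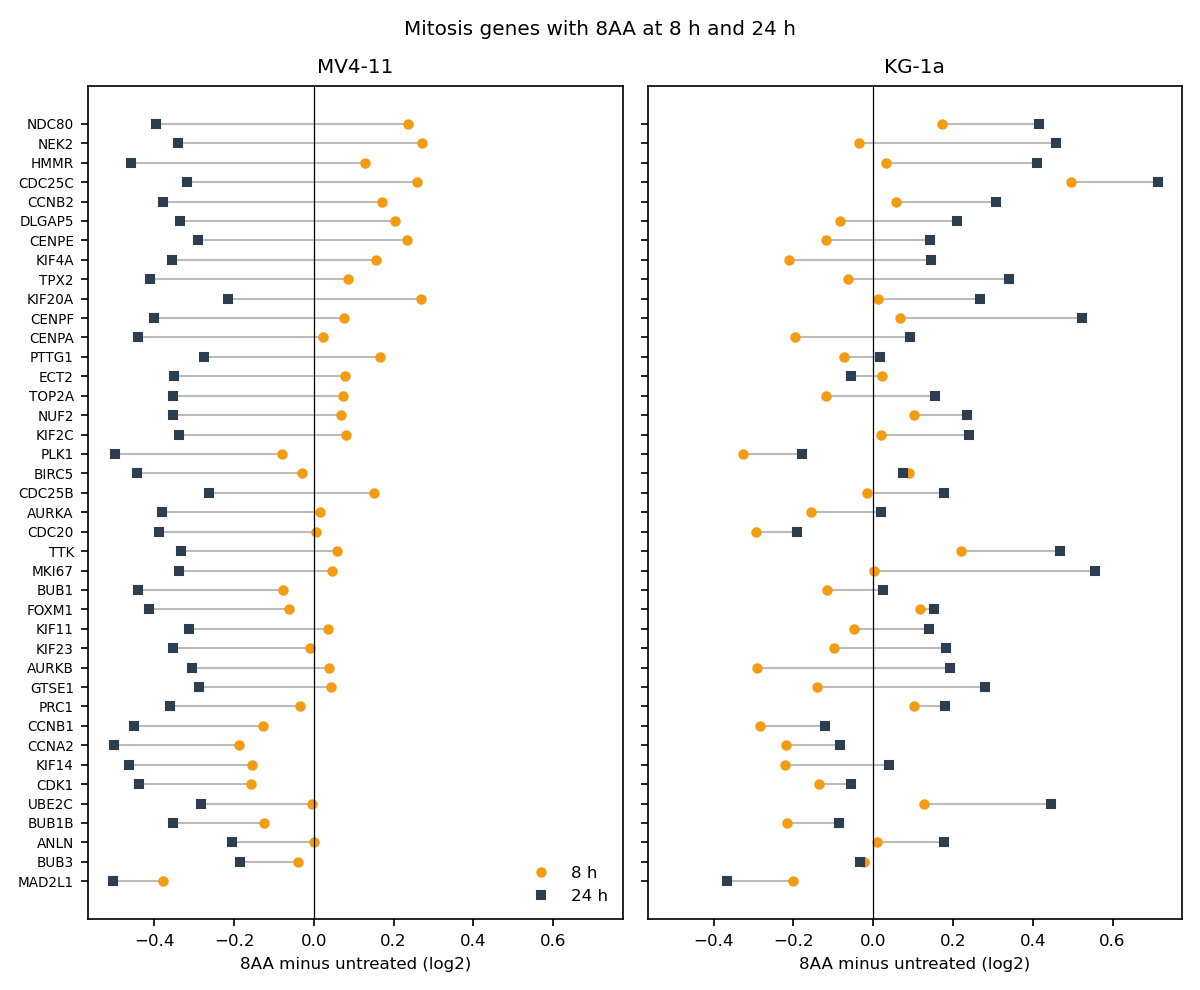
Log2 change with 8AA against untreated cells for the 40 mitosis genes in MV4-11 (left) and KG-1a (right), with orange circles for 8 h, dark squares for 24 h and a grey line joining the times, in the order of the late minus early change in MV4-11. All squares lie left of their circles in MV4-11, and 36 of 40 lie right of them in KG-1a.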

How the data were processed

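For RNA-seq of the MV4-11 and KG-1a lines, the authors deposited raw counts of reads per gene for 24 libraries in one table. The submitters' processing notes name Trimmomatic, STAR 2.6.0, HTSeq 0.11.1 and edgeR, and list both hg19 and hg38. Gene ends in the table matched RefSeq GRCh38 within 1000 bases for 4.18% of 21885 genes, so no gene coordinates of the table are printed. Whether strand was used in counting is not given in the sources used here. Antisense and overlapping genes cannot be told apart, and near-identical copies may share reads. All 24 library columns were matched to a sample by name, and 0 columns were left unused.

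Counts were analysed in R 4.3.3 with edgeR 4.0.16. Genes were kept by filterByExpr with a minimum count of 10, libraries were scaled by TMM, and a quasi-likelihood model with 1 term per group was fitted to the 12 MV4-11 libraries. CPM were computed after this scaling. Contrasts were the change with 8AA at 8 h and at 24 h, their difference, the shift between times in each condition, and the same difference for 8CA. KG-1a was compared in a fit of all 24 libraries. Standard errors were derived from the fold change and its F statistic, and p-values were adjusted over all genes tested by Benjamini-Hochberg. The scripts were tested on simulated data.

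Genes were named by rule: in each direction the 5 passing and 5 late changes, and the 3 lasting and 3 turned changes, largest in size with a mean log2 CPM of at least 2 and no overlap between 8AA and untreated libraries at the times of the change, and up to 4 called genes per list by size, besides MAT2A and METTL16. Others are said to be chosen after their values were seen. The 47 gene lists, the promoter motifs and the members were chosen with earlier results of these data known. Promoters came from RefSeq (GRCh38.p14). Alternatives were other scalings, filters, fits, a fold threshold, the DESeq2 1.42.0 Wald test, a replicate block and leaving out each library. Some genes are not reported here.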

Additional observations from a re-analysis of the deposited data

Results flagged for a closer look

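Of 113 genes named by rule, 37 had a late minus early change that differed between 8AA and 8CA in MV4-11, and 47 had one that differed between MV4-11 and KG-1a, each by the edgeR quasi-likelihood test of the difference itself. Groups of 2 libraries are too small to look for a library far from the rest of its group.

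The value with 8AA minus that with 8CA, on the log2 scale, was above 0 for TERT (1.095), VPS9D1-AS1 (0.617), KCNC4 (0.637), PRR5 (0.574), ETV4 (1.192), IL7R (0.89), FOSL1 (0.474), HLA-DRA (0.715), HLA-DPA1 (1.492), CD74 (0.232), TFRC (0.313), MYBBP1A (0.376), NIP7 (0.262), NOP16 (0.311), RRP12 (0.302), HSPA1A (0.668), HSPA8 (0.463), DNAJA1 (0.328), PSMD2 (0.259), PSMD1 (0.295), SQLE (0.937), FDPS (0.437), TPI1 (0.319), LDHA (0.483), HK2 (0.224), TYMS (0.301), PFAS (0.44), PNP (0.272), GINS4 (0.338) and CDK2 (0.374). It was below 0 for TUBA1A (−0.628), FAM129A (−1.831), DDIT4 (−0.771), STAT2 (−0.324), PHGDH (−2.038), BMF (−0.548) and NBR1 (−0.416).

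Between the cell lines, MV4-11 minus KG-1a, the difference was above 0 for TERT (1.795), VPS9D1-AS1 (1.58), KCNC4 (0.938), PRR5 (0.637), C10orf35 (1.469), CSMD3 (0.937), MAT2A (0.41), METTL16 (0.385), TFRC (1.129), MYBBP1A (0.933), NIP7 (0.644), NOP16 (0.589), RRP12 (1.036), SLC7A5 (0.489), PYCR1 (0.877), HSPA8 (0.678), DNAJA1 (0.465), PSMD1 (0.41), SQLE (0.447), LDHA (0.512), HK2 (0.482), PFAS (0.811), MRPS25 (0.765) and GAS6-AS1 (1.289). It was below 0 for TUBA1A (−1.521), SORL1 (−1.116), MYBPH (−4.688), CCNG2 (−0.989), ICAM1 (−1.468), FAM129A (−0.695), PSRC1 (−1.134), DDIT4 (−1.075), TRIM36 (−0.992), KLF6 (−0.726), BCL3 (−1.758), STAT2 (−0.472), DDB2 (−0.407), BMF (−1.166), PRIM2 (−0.421), TK1 (−0.433), NDC80 (−0.887), NEK2 (−1.115), HMMR (−0.975), CDC25C (−0.804), NBR1 (−0.567), MNDA (−2.54) and SAT1 (−0.967). MYBPH did not exceed 0.28 CPM in the KG-1a libraries, and MNDA stood at 1.24 to 2.08 CPM there.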

How the results depend on the processing

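All 593 called differences kept their sign when any 1 library was left out, and 93 kept the call. Over these 8 fits the count ranged from 118 to 431 (higher 53 to 240, lower 65 to 224), the calls at 8 h from 2584 to 3635 and at 24 h from 2179 to 3905, the untreated shift from 146 to 813 and that with 8AA from 1555 to 3209. Classes ranged from 39 to 152 (passing), 51 to 214 (late), 1272 to 1612 (lasting), 5 to 25 (growing), 7 to 37 (shrinking) and 15 to 34 (turned). Lists ranged from 15 to 32 (mitosis), 3 to 7 (ribosome biogenesis), 2 to 4 (MHC class II), 0 to 7 (proteasome) and 1 to 5 (replication), and the median of the longest genes from 0.022 to 0.067. The difference between compounds ranged from 365 to 1031, that between lines from 908 to 1759 and the KG-1a change from 1674 to 3083. CD84 (−0.0639 to 0.0289) reversed, to 0.0147 without untreated 8 h replicate B and 0.0289 without 8AA 24 h replicate B, as did SHISA3 (−0.1272 to 0.3017), to −0.1272 without untreated 8 h replicate A and −0.0663 without 8AA 8 h replicate B.

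With library size only there were 65 turned and 8 replication genes, and with upper-quartile scaling 8 replication genes. Without a filter there were 952 differences (513 higher, 439 lower), 1122 untreated shifts, 338 passing, 402 late, 62 turned and 9 replication genes. A fit of the 8 libraries alone gave 25 growing genes. DESeq2 called 390 differences (212 higher, 178 lower), with 26 shrinking and 14 turned genes. A 2-fold threshold left 29 differences (18 higher, 11 lower), 194 changes at 8 h, 195 at 24 h, 43 untreated shifts, 119 with 8AA, 6 passing, 8 late, 36 lasting, 0 growing, 0 shrinking, 2 turned and 2 MHC class II genes, and 0 of the mitosis, ribosome biogenesis, proteasome and replication genes. The cause of these changes was not tested.

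Nothing in the labels ties the replicate letters to a culture or day. Deviations of same-letter libraries correlated between 0.205 and 0.657 in the 10 pairs among 5 of the 6 MV4-11 groups, and between −0.431 and −0.0761 in the 5 pairs with untreated 24 h, so the letters were not taken to pair all groups. With the letter as a replicate block there were 1123 differences (586 higher, 537 lower) that included all 593, 1321 untreated shifts, 375 passing, 450 late, 96 growing, 113 shrinking, 77 turned, 15 proteasome and 13 replication genes and 1606 differences between compounds. Depth and 2 libraries per group limit the detection of small differences.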
